A study of Homo sapiens with 8 samples.

Results

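Mitochondrial ribosomal proteins are encoded by nuclear genes, made in the cytosol and imported into mitochondria, where they build the ribosome that translates the few proteins encoded by mitochondrial DNA, all of them subunits of the respiratory chain and ATP synthase. Some have a bacterial homolog and others are specific to mitochondria. The large subunit (MRPL genes, with some MRPS names) joins amino acids and holds the exit tunnel. The small subunit (MRPS genes) binds and decodes the mRNA. The genes described here are the protein-coding genes whose symbol starts with MRPL or MRPS, with pseudogenes left out. There were 78 of them among the 58884 genes of the tables. The same letters began 164 symbols in all, of which 79 were pseudogenes and 7 were antisense or other noncoding genes. One of the 78, MRPS36, keeps its ribosomal name but encodes a subunit of the 2-oxoglutarate dehydrogenase complex.

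The study changed the level of NR1D1, which encodes the nuclear receptor and circadian repressor REV-ERB alpha, in 4 human thyroid cancer cell lines. In 8505C and CAL-62, cells given an siRNA against NR1D1 (siNR1D1, NR1D1 knockdown) were set beside cells given a control siRNA (siControl, labelled WT). In TPC-1 and FTC-133, cells with an NR1D1 vector (NR1D1 overexpression) were set beside cells with an empty vector (labelled WT). Each group was 1 RNA-seq library, so no difference within a line has a replicate check, and the siRNA and vector approaches were never used in the same line. The sources used here do not say whether each line was 1 clone, which siRNA sequence was used or how long it acted. Lists of 4 values below run through 8505C, CAL-62, TPC-1, then FTC-133.

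All levels below are TPM (a level per gene length, as a share of the library) after the 37 mitochondrial (MT-) genes were dropped and each library was rescaled to 1000000. The dropped genes had made up 67.8% of the siNR1D1 library and 57.2% of the siControl library in CAL-62, against 15.7% to 29.3% in the other 6. Recovered read totals ran from 12.86 to 23.18 in units of 1e6 reads per library. The median mitochondrial ribosomal protein gene had 223 reads in CAL-62 siNR1D1 cells, the shallowest library, and 470 to 943 in the others. NR1D1 had 15.7 TPM in siNR1D1 and 25.8 TPM in siControl cells of 8505C, and 31.5 and 51.4 TPM in the same order in CAL-62. Cells with the NR1D1 vector had 259.5 TPM in TPC-1 and 162 TPM in FTC-133, against 229.9 TPM in TPC-1 and 127.5 TPM in FTC-133 with the empty vector. The labelled direction thus held in each line, with a small difference in TPC-1. The thyroid genes TG, TSHR and SLC5A5 reached at most 2.33 TPM in any library, while the thyroid transcription factor gene PAX8 ran from 0.702 TPM in 8505C to 400.1 TPM in TPC-1. Of the other thyroid transcription factors, NKX2-1 ran from 0 TPM in CAL-62 and TPC-1 to 141 TPM in 8505C, and FOXE1 from 0.0946 TPM in 8505C to 28.7 TPM in TPC-1.

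Of the 78 genes, 77 had a value above 0 in every library and a mean of at least 1 TPM, and 74 had a mean of at least 5 TPM. MRPL53 was listed at 0 in all 8 libraries. Of its exon bases, 45.2% lie in exons of CCDC142 on the same strand, and reads there may have been given to neither gene. MRPL12, with 68.2% of its exon bases shared on the same strand, still had 27.4 to 85.9 TPM in control cells. The reason for the value of 0 was not tested. Altogether 14 of the 78 genes share at least 20% of their exon bases with another gene, among them MRPL12 (68.2%), MRPS18A (47.0%), MRPL38 (41.1%), MRPS18C (40.2%) and MRPL43 (36.9%), and their levels are uncertain for that reason. Fewer copies per cell and a larger share of RNA from other genes cannot be told apart in such values.

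In control cells the genes covered a wide span of levels. The mean control level over the 4 lines was 20 to 200 TPM for 63 genes, at least 200 TPM for 8 and under 20 TPM for 7. MRPL15, a large-subunit protein, was the most abundant at a mean of 363 TPM, and it was followed by MRPL3, which lies near the peptidyl transferase centre, at 264 TPM and by MRPS18B, a small-subunit protein, at 262 TPM. MRPL51, MRPL47 and MRPL41 averaged 235, 208 and 209 TPM. At the low end MRPL38 and MRPL46, both of the central protuberance of the large subunit, averaged 2.34 and 3.47 TPM, and MRPS24, of the small-subunit head, averaged 2.70 TPM. These last values rest on few reads, for example 8 reads in siNR1D1 and 5 reads in siControl cells of 8505C for MRPS24.

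Some members were almost level across the lines and others were not. MRPL36, a small zinc-binding protein in bacteria, had 60.1, 57.2, 57.3 and 60.7 TPM in control cells of the 4 lines, a range of 1.06-fold. MRPL22, which lines the exit tunnel, varied 1.17-fold. MRPS17, of the small-subunit body, had 20.3, 18.6 and 15.7 TPM in control cells of 8505C, CAL-62 and TPC-1 but 1.86 TPM in FTC-133, a range of 10.9-fold. The FTC-133 value rests on 14 reads, and 27.0% of the exon bases of MRPS17 lie in exons of another gene on the same strand. MRPL1, of the mobile stalk beside the exit site for tRNA, was highest in 8505C at 86.5 TPM, had 46.4 TPM in CAL-62 and 42.5 TPM in TPC-1, and was lowest in FTC-133 at 13.9 TPM. MRPL15 had 336, 256, 702 and 159 TPM in the same order, and MRPL47, beside the exit tunnel, had 138, 214, 392 and 88.1 TPM. TPC-1 was the highest line for both genes and FTC-133 the lowest. MRPL35 had 17.3 TPM in 8505C, 71.6 TPM in CAL-62, 51.2 TPM in TPC-1 and 25.9 TPM in FTC-133, so a different line was highest. MRPS28 had 18.8, 9.85, 44.4 and 14.2 TPM in control cells of the 4 lines. With 1 control library a line, neighbours in these orders have no spread to be judged by.

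**Figure D1:**
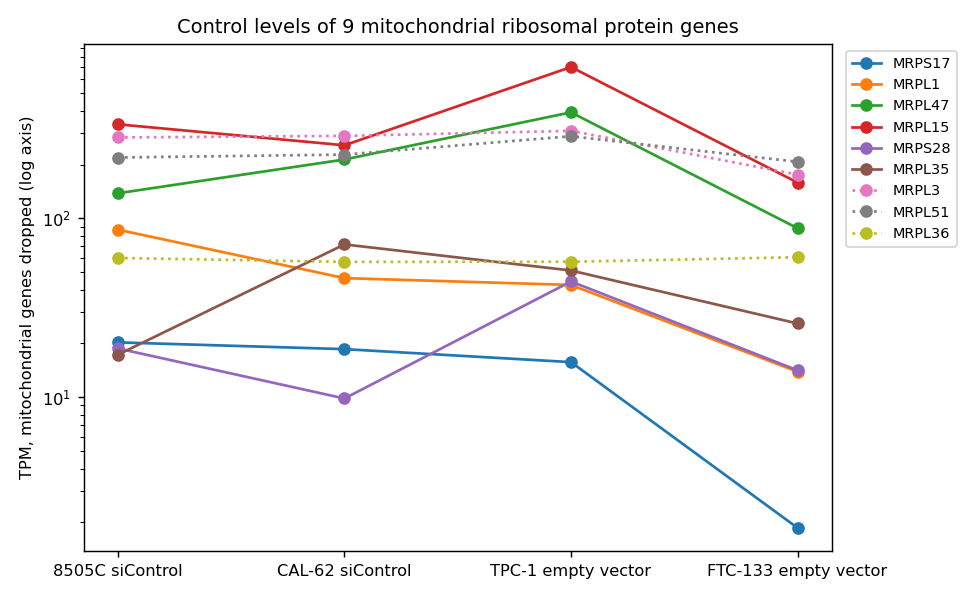
Control levels in TPM (log axis) of 9 mitochondrial ribosomal protein genes in the 4 lines, 1 library each. Solid lines are the 6 genes with the widest range of log2(TPM + 1) and dotted lines are 3 even or abundant genes, and the lines between points only guide the eye. MRPS17 drops to 1.86 TPM in FTC-133, on 14 reads, while MRPL36 stays between 57.2 and 60.7 TPM.

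The median range of log2(TPM + 1) over the 4 control libraries was 1.09 for the 77 genes, and 42 of them (54.5%) varied at least 2-fold. Among 7335 protein-coding genes with a mean of at least 20 TPM the median range was 1.45, and 74.8% varied at least 2-fold. As a sum the genes made up 6135 TPM in 8505C, 6057 TPM in CAL-62, 8741 TPM in TPC-1 and 6544 TPM in FTC-133 control cells, so TPC-1 was highest.

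Control levels in 8505C and CAL-62 were set against those in TPC-1 and FTC-133, with 2 lines on each side. MRPL24, at the exit tunnel, had 89.3 and 72.6 TPM in 8505C and CAL-62, against 276 and 191 TPM in TPC-1 and FTC-133. MRPS16, of the small-subunit body, had 101 and 112 TPM in 8505C and CAL-62, against 254 and 286 TPM in TPC-1 and FTC-133. MRPL41 had 102 and 142 TPM in 8505C and CAL-62, against 284 and 309 TPM in the other lines. These genes were chosen for this difference, and none passed the test. The log2 difference was -1.503 for MRPL24 (SE 0.437, limma, Benjamini-Hochberg adjusted p = 0.533), which was the smallest adjusted p among the 77 genes, and -1.33 for MRPS16 and -1.29 for MRPL41. limma passed 0 of the 77 genes, and 0.0% of 19350 genes tested passed. At an unadjusted p under 0.05, 5 genes were lower in 8505C and CAL-62, beside 3.21% of all genes, and 0 were higher, beside 5.55%. The other 2 of the 5 were MRPL37 and MRPL18. The count of 5 was 0 without the trended prior and 11 with trimmed-mean scaling. With a line left out, 1 side holds 1 library, so no count is given for that. The median log2 difference over the 77 genes was -0.19, beside 0.28 over all genes, and it was 0.01 without TPC-1.

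After NR1D1 siRNA many of the genes were lower, more of them in CAL-62 than in 8505C. The median log2 ratio (TPM + 1) of siNR1D1 over siControl was -0.13 in 8505C and -0.47 in CAL-62, beside 0.05 and 0.11 over all genes with a mean of at least 1 TPM. In 8505C 48 of 76 genes had a ratio below 0, beside 47.2% of all genes, and in CAL-62 66 of 77 did, beside 43.6%. Genes with at least 20 TPM, a level more like that of most members, had medians of -0.03 in 8505C and 0.00 in CAL-62. The summed level was 5321 TPM in siNR1D1 and 6135 TPM in siControl cells of 8505C, a ratio of 0.867. In CAL-62 it was 4098 TPM in siNR1D1 and 6057 TPM in siControl cells, a ratio of 0.677.

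**Figure D2:**
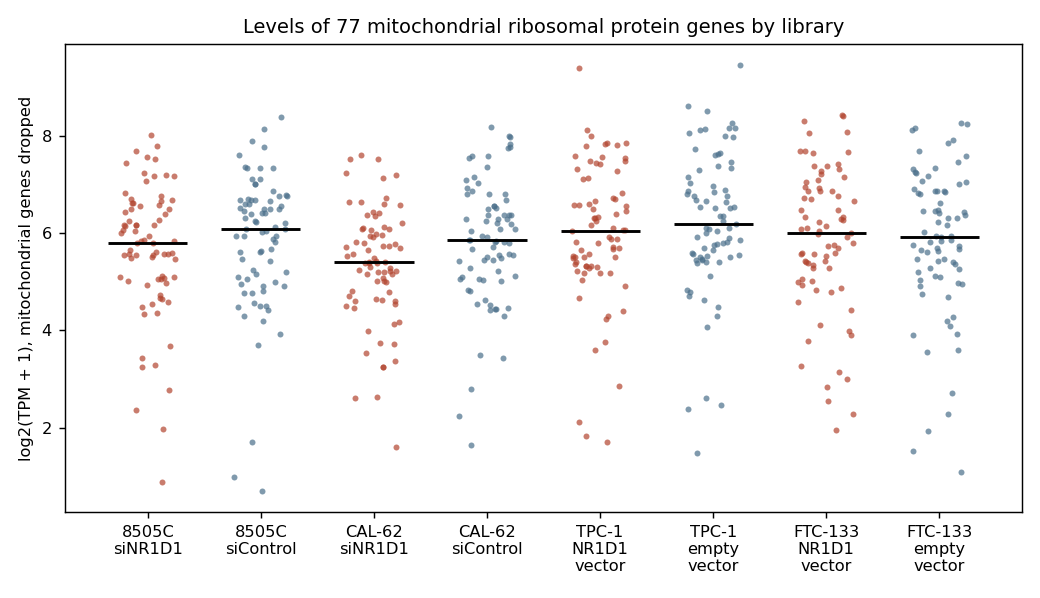
Levels of 77 mitochondrial ribosomal protein genes as log2(TPM + 1) in the 8 libraries, treated (red) to the left of control (blue) in each line. Each point is a gene and each bar the median, which is lowest in CAL-62 siNR1D1 cells at 41.2 TPM on the linear scale.

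Counted at a log2 ratio of 0.5 or more, 18 of 76 genes were lower in 8505C (23.7%, beside 19.7% of all genes) and 7 were higher (9.21%, beside 28.8%). In CAL-62 37 of 77 were lower (48.1%, beside 18.4% of all genes) and 2 were higher (2.6%, beside 30.3%). The share lower in 8505C was thus near that of all genes, and in both lines the share higher was below it. The SD of the log2 ratio over these genes was 0.56 in 8505C and 0.50 in CAL-62, beside 0.909 and 0.998 over all genes. Of all genes, 7310 of 17976 in 8505C and 8211 of 20565 in CAL-62 had at least 20 TPM. Among the mitochondrial ribosomal protein genes 68 and 67 did, so these SDs and shares are not matched for level.

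**Figure D3:**
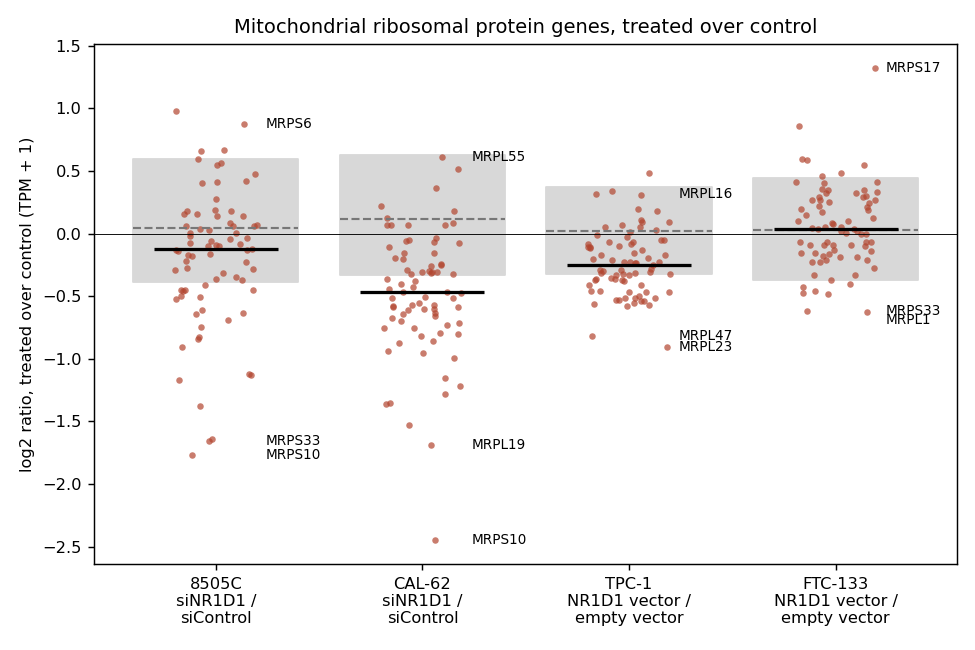
The log2 ratio of treated over control for each mitochondrial ribosomal protein gene in the 4 lines (red points), with the median of these genes (solid bar), the span between the lower and upper quartile of all genes (grey band) and the median of all genes (dashed line). The gene median lies below the dashed line in 8505C, CAL-62 and TPC-1, at -0.13, -0.47 and -0.25, and on it in FTC-133, at 0.04.

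MRPS10, a protein of the small-subunit head, was the lowest member in both siRNA lines. It lies at chr6:42206801-42217865 (GRCh38, minus strand). It had 46.4 TPM in siNR1D1 and 161 TPM in siControl cells of 8505C, a fold of 0.289 (95% counting interval 0.256 to 0.325). In CAL-62 it had 45.3 TPM in siNR1D1 and 252 TPM in siControl cells, a fold of 0.18 (0.154 to 0.21). Control levels were thus within 1.69-fold over the 4 lines, and both siNR1D1 libraries stood well below them. With the NR1D1 vector MRPS10 had 174 TPM in TPC-1 and 159 TPM in FTC-133, against 251 and 149.6 TPM with the empty vector. Intervals of this kind cover counting error in recovered reads only, not the spread between cultures.

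Another 4 genes had a log2 ratio of -1 or lower in both siRNA lines, which 1.3% of all genes had. MRPS33, a mitochondrion-specific small-subunit protein at chr7:141002610-141015228, had 8.83 TPM in siNR1D1 and 30.0 TPM in siControl cells of 8505C, and 8.52 and 22.1 TPM in that order in CAL-62. MRPL19, a large-subunit protein with a bacterial homolog at chr2:75646783-75690851, had 9.74 TPM in siNR1D1 and 27.0 TPM in siControl cells of 8505C, and 16.9 and 56.8 TPM in CAL-62. Both genes were at or below 0.361-fold in 8505C. MRPL57, a small mitochondrion-specific protein of the large subunit at chr13:21176645-21179084, had 24.03 TPM in siNR1D1 and 55.3 TPM in siControl cells of 8505C. In CAL-62 it had 12.4 TPM in siNR1D1 and 37.7 TPM in siControl cells, on 52 and 261 reads. MRPS16, which was chosen here after its values were seen and which causes a respiratory chain deficiency when mutated, had 45.7 TPM in siNR1D1 and 101 TPM in siControl cells of 8505C, and 49.5 and 112 TPM in CAL-62.

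Other low members were not at -1 in both lines. MRPS17 had 5.84 TPM in siNR1D1 and 20.3 TPM in siControl cells of 8505C (46 and 134 reads), and 10.6 and 18.6 TPM in CAL-62. MRPS27, a pentatricopeptide repeat protein of the small subunit, had 44.0 TPM in siNR1D1 and 83.6 TPM in siControl cells of 8505C, and 34.6 and 90.3 TPM in CAL-62. MRPL15 had 189 TPM in siNR1D1 and 336 TPM in siControl cells of 8505C, and 99.6 and 256 TPM in CAL-62. MRPS17 was thus lower by more in 8505C, and MRPS27 and MRPL15 by more in CAL-62.

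The highest members after siRNA, among those with a mean of at least 5 TPM, mostly differed by line. In 8505C MRPS6, a small-subunit platform protein, had 66.2 TPM in siNR1D1 and 35.7 TPM in siControl cells (1.85-fold, 1.66 to 2.07), but 38.5 and 36.3 TPM in CAL-62. MRPL43 had 47.0 TPM in siNR1D1 and 29.2 TPM in siControl cells of 8505C and 40.9 and 42.6 TPM in CAL-62. MRPL23, at the exit tunnel, and MRPL28 had log2 ratios of 0.59 and 0.56 in 8505C but -0.31 and -0.44 in CAL-62. In CAL-62 the highest were MRPL55 at 0.61 and MRPS5, of the small-subunit body, at 0.51, which had 0.41 and 0.15 in 8505C. MRPL52 and MRPL20 followed in CAL-62 at 0.22 and 0.18, with 0.07 and -0.08 in 8505C.

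Both siRNA lines together had 45 genes lower in each and 8 higher in each, and 17 genes at a log2 ratio of -0.5 or lower in each. Among all 19974 genes tested, 25.8% were lower in both lines, 34.0% were higher in both and 6.61% were at -0.5 or lower in both. Within limma's fit over all genes, 17 of the 77 genes were lower at an unadjusted p under 0.05, beside 5.57% of all genes, and 0 were higher, beside 8.97%. Leaving out 8505C or CAL-62 leaves 1 siRNA pair, whose spread no p-value can measure, so no such counts are given. After Benjamini-Hochberg adjustment limma passed 0 genes, and 0.0% of all genes passed. MRPS10 came nearest with a log2 change of -2.11 (SE 0.273, adjusted p = 0.156). MRPL19 followed at -1.54, MRPS33 at -1.47, MRPL57 at -1.35, MRPS16 at -1.14, MRPS27 at -1.14 and MRPL15 at -1.09, each with an adjusted p of 0.165 to 0.187. The median change was -0.28 over the 77 genes and 0.08 over all genes. It was -0.47 from CAL-62 alone and -0.12 from 8505C alone. Each comparison rests on 2 lines, and in simulated data of this size limma called 0 of 66 genes planted at a log2 change of 3, so the lack of adjusted calls says nothing of whether the genes changed.

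Other measures moved with these results. The 84 measured cytosolic ribosomal protein genes had medians of -0.39 in 8505C and -0.80 in CAL-62, lower than the mitochondrial ones, and 74 and 81 of them were below 0. In CAL-62 the mitochondrial RNA share was higher in siNR1D1 cells, as given above, and the ratio followed gene length. Protein-coding genes with at least 20 TPM had medians of -0.23, -0.07, 0.05 and 0.14 from the shortest quartile of exon lengths to the longest. The 67 mitochondrial ribosomal protein genes above the same level had a median of -0.51, below that of the shortest quartile. In 8505C the quartiles ran from 0.04 to -0.06. Summed levels of 4 leukocyte markers were 120.0 TPM in siNR1D1 and 32.1 TPM in siControl cells of 8505C, and 38.3 and 2.59 TPM in CAL-62. Nearly all of this was CD14, while PTPRC reached at most 0.174 TPM in any library. Summed levels of 3 endothelial markers were 203 TPM in siNR1D1 and 70.0 TPM in siControl cells of 8505C, almost all CDH5, and 0.851 and 0.436 TPM in CAL-62. The 4 stromal markers summed to 18.9 TPM in siNR1D1 and 9.02 TPM in siControl cells of 8505C, and to 3.48 and 0.125 TPM in CAL-62. The 4 epithelial markers summed to 2320 TPM in siNR1D1 and 1700 TPM in siControl cells of 8505C, and to 2510 and 3170 TPM in CAL-62. Within that list directions differed. In CAL-62 EPCAM had 1010.0 TPM in siNR1D1 and 453 TPM in siControl cells, while KRT8, KRT18 and KRT7 were lower in siNR1D1 cells. In 8505C EPCAM had 1.51 and 2.60 TPM, and KRT8 and KRT18 were higher in siNR1D1 cells and KRT7 lower. The part of these measures in the lower levels was not tested.

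Several of the lowest genes carry in their 3′ untranslated region (UTR) 1 of 4 words of 7 bases. They are ATGAGCA, its neighbour shifted by a base CATGAGC, and a second overlapping pair, AATCCTA beside the also shifted AAATCCT. These words had been picked earlier, on these same libraries, from the 3′ UTRs of genes lower after siRNA, so they are no independent evidence. Of the 77 genes 13 carried one (16.9%, beside 28.0% of 12906 genes with a 3′ UTR). MRPS10, MRPS27 and MRPL57 are shown because they are among the lower members, and the capitals mark the word in the GENCODE 29 transcript.
MRPS10: ttcagcaaacATGAGCAaaccactttg
MRPS27: gggattagttATGAGCAttaaagttcc
MRPL57: gcatgcctgtAATCCTAgctactggga
The MRPS10 site begins at base 222 of a 3′ UTR of 1488 bases, and the MRPS27 site at base 284 of 1500.

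The 13 genes with such a word had median log2 ratios of -0.61 in 8505C and -0.75 in CAL-62. The 64 without a word had -0.09 and -0.37. At -0.5 or lower in both lines were 7 of the 13 (53.8%) and 10 of the 64 (15.6%), beside 10.8% and 5.0% of all genes with and without a word. Because the words were picked from genes lower after siRNA in these libraries, that choice favours lower values in the carriers. These contrasts therefore test nothing. The 3′ UTRs differ as well, with a median of 1499 bases in the 13 genes and 272 bases in the 64. MRPS33, MRPL19, MRPS16, MRPL15 and MRPL50 carry none of the words in the searched transcript and were at -0.80 or lower in both lines. In TPC-1 and FTC-133 the genes with and without a word had medians of -0.19 and -0.29, and 0.05 and 0.02. Whether the siRNA itself matches these sites was not tested.

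**Figure D4:**
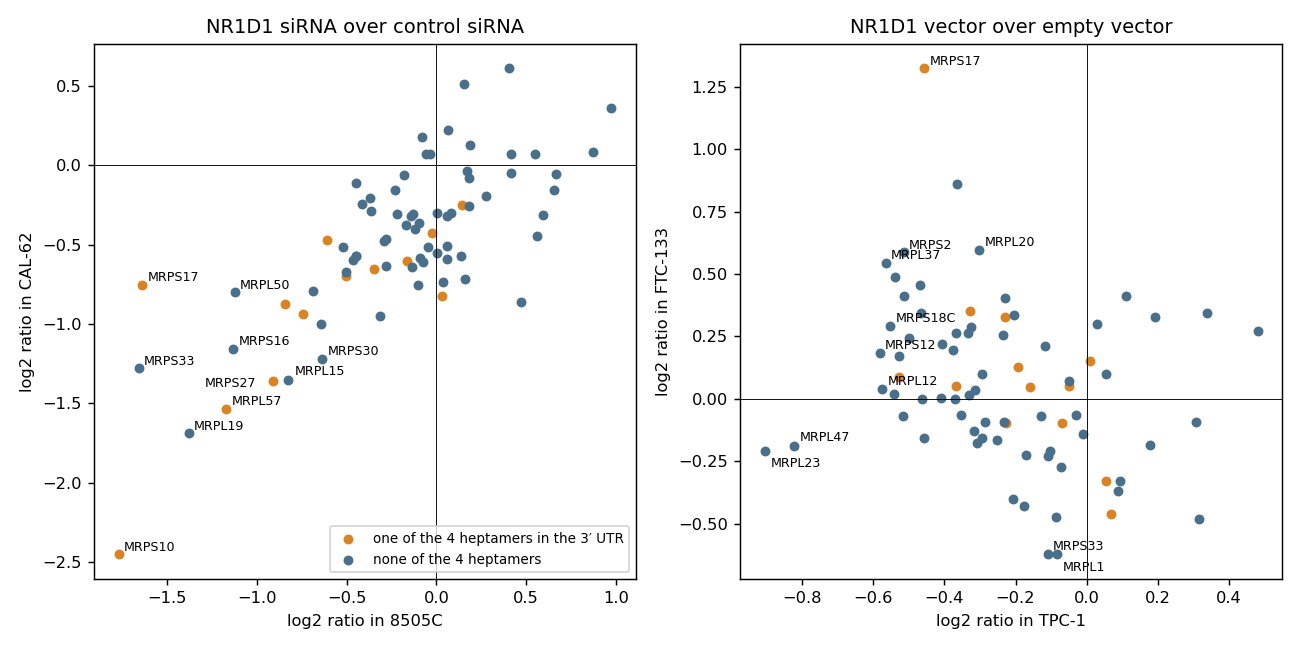
The log2 ratio of treated over control for each of 77 mitochondrial ribosomal protein genes, siRNA lines on the left (8505C across, CAL-62 up) and vector lines on the right (TPC-1 across, FTC-133 up). Orange genes carry 1 of the 4 words of 7 bases in the 3′ UTR, and MRPS10 lies lowest in the left panel at -1.77 and -2.45.

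With the NR1D1 vector the lines differed from each other. In TPC-1 63 of 77 genes were lower, beside 48.5% of all genes, with a median log2 ratio of -0.25 (0.02 over all genes), and the sum was 7274 TPM with the NR1D1 vector and 8741 TPM with the empty vector. In FTC-133 34 of 77 were lower, near the 46.8% of all genes, the median was 0.04 (0.03 over all genes, and -0.01 with trimmed-mean scaling), and the sum was 6832 TPM with the NR1D1 vector and 6544 TPM with the empty vector. At a log2 ratio of 0.5 or more, 13 genes were lower in TPC-1 (16.9%, beside 15.8% of all genes) and 0 were higher (beside 18.9%). In FTC-133 2 were lower (2.6%, beside 19.3%) and 5 were higher (6.49%, beside 22.8%). The shift in TPC-1 was therefore spread over most of the 77 genes in small steps. The SD was 0.26 over the 77 genes and 0.77 over all genes. In TPC-1 71 of the 77 genes had at least 20 TPM, beside 7480 of 17004 of all genes. SDs and shares here are thus not matched for level. The cytosolic ribosomal protein genes did not share the shift, with a median of 0.14 in TPC-1.

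In TPC-1 the lowest members were MRPL23 and MRPL47, at the exit tunnel, MRPS12, of the decoding centre, and MRPL12, of the stalk that recruits translation factors. MRPL47 had 221 TPM with the NR1D1 vector and 392 TPM with the empty vector, a fold of 0.565 (0.529 to 0.602). MRPS12 had 44.6 TPM with the NR1D1 vector and 67.3 TPM with the empty vector, and MRPL12 had 54.3 and 81.4 TPM. MRPL23 had 2.28 TPM with the NR1D1 vector and 5.13 TPM with the empty vector, on 32 and 74 reads. MRPL16, of the large subunit, was among the highest in TPC-1, with 66.1 TPM with the NR1D1 vector and 52.9 TPM with the empty vector. The other high members in TPC-1 were MRPS14, MRPS21 and MRPL45, the protein that ties the ribosome to the inner membrane, at log2 ratios of 0.31, 0.19 and 0.18.

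In FTC-133 MRPS17 was highest, with 6.17 TPM with the NR1D1 vector and 1.86 TPM with the empty vector. That fold of 3.31 rests on 46 and 14 reads and has a counting interval of 1.83 to 5.99. MRPL20 had 63.2 TPM with the NR1D1 vector and 41.4 TPM with the empty vector, MRPS2 had 131 and 86.9 TPM, and MRPL37 had 338 and 232 TPM. In TPC-1 all of these genes had ratios below 0, for example 192 TPM with the NR1D1 vector and 285 TPM with the empty vector for MRPL37. The lowest in FTC-133 were MRPL1, at 8.67 TPM with the NR1D1 vector and 13.9 TPM with the empty vector, MRPS33, at 32.5 and 50.5 TPM, and MRPL16 and MRPL42, at log2 ratios of -0.48 and -0.47.

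Altogether 36 of the 77 genes were lower in TPC-1 and higher in FTC-133, as were 24.7% of all genes. Lower in both vector lines were 27, beside 3588 of all 19974 genes, and higher in both were 7, beside 4521 (22.6%). In the vector comparison limma passed 0 of the 77 genes, 0 were lower and 0 were higher at an unadjusted p under 0.05, and over all genes the shares were 0.0%, 1.46% and 2.7%. Every member had an adjusted p of 1.0. The median change was -0.10, beside 0.00 over all genes, and it was 0.04 without TPC-1 and -0.25 without FTC-133.

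Across all 4 lines 17 genes were lower in the treated library of each line, beside 5.93% of all genes, among them MRPL19, MRPL47, MRPS33, MRPS27 and MRPL1. MRPL38 and MRPL55 were higher in each, beside 9.77% of all genes. MRPL38 had 2.90 TPM in siNR1D1 and 0.98 TPM in siControl cells of 8505C, and 5.08 and 3.73 TPM in CAL-62. Cells with the NR1D1 vector had 2.54 TPM in TPC-1 and 3.85 TPM in FTC-133, against 1.8 and 2.82 TPM with the empty vector. These are 11 to 49 reads a library, and 41.1% of its exon bases lie in exons of other genes. For treated over control in the 4 lines limma passed 0 of the 77 genes (0.0% of all genes), with 7 lower at an unadjusted p under 0.05 (2.76% of all genes) and 0 higher (5.96%). The 7 became 0 without CAL-62, 1 without 8505C, 8 without TPC-1 and 18 without FTC-133, and 13 with trimmed-mean scaling. The 7 with all lines were MRPS33, MRPL47, MRPL50, MRPS10, MRPL19, MRPS30 and MRPS16, with a smallest adjusted p of 0.561.

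Since siRNA and vector push NR1D1 in opposite directions, the NR1D1-higher library of each line was also set against the NR1D1-lower one. limma again passed 0 of the 77 genes (0.0% of all genes). At an unadjusted p under 0.05, 0 genes were lower with higher NR1D1 (2.75% of all genes) and 1 was higher (1.84%). Without 8505C or CAL-62 it was 0, without TPC-1 5 and without FTC-133 4. With all lines that gene was MRPS21, a small-subunit protein at chr1:150293720-150308979. It had 103 TPM in siNR1D1 and 161 TPM in siControl cells of 8505C, and 50.6 and 102 TPM in CAL-62. Cells with the NR1D1 vector had 190.0 TPM in TPC-1 and 167 TPM in FTC-133, against 166 and 133 TPM with the empty vector. The NR1D1-higher library was the higher one in 4 of 4 lines, with a mean log2 difference of 0.54 (SE 0.192, limma, Benjamini-Hochberg adjusted p = 0.899). The median over the 77 genes was 0.09, beside -0.03 over all genes, and -0.01 without CAL-62.

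By subunit, the large and small subunit genes gave like values. The 50 measured large-subunit genes had median log2 ratios of -0.12, -0.49, -0.25 and 0.03 over the 4 lines. The 26 small-subunit genes had -0.10, -0.42, -0.31 and 0.09. Genes with a bacterial homolog had -0.13 and -0.54 in 8505C and CAL-62 in the large subunit, and -0.10 and -0.42 in the small one. Mitochondrion-specific genes had 0.01 and -0.30 in the large subunit, and -0.10 and -0.40 in the small one. MRPS36, the dehydrogenase subunit, was also lower in both siRNA lines, at -0.75 and -0.94.

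Within the large subunit, the structural neighbourhoods differed in their medians. The 7 genes of the central protuberance (MRPL18, MRPL27, MRPL38, MRPL40, MRPL46, MRPL48 and MRPL52), which holds the structural tRNA, had medians of 0.18 in 8505C, -0.08 in CAL-62, -0.35 in TPC-1 and 0.34 in FTC-133. MRPL38 and MRPL46 averaged 2.34 and 3.47 TPM in control cells, so these medians rest partly on genes with few reads. In FTC-133 MRPL18, MRPL27, MRPL40, MRPL48 and MRPL52 had -0.07, -0.07, -0.21, 0.34 and 0.41. The 7 genes around the exit tunnel (MRPL17, MRPL22, MRPL23, MRPL24, MRPL44, MRPL45 and MRPL47) had -0.32, -0.51, -0.33 and -0.16, below 0 in each line. The stalk genes MRPL10 and MRPL12 had -0.82 and -0.36 in CAL-62. The 3 paralogs of the bacterial S18 protein differed in level, with a control mean of 262 TPM for MRPS18B, 70.2 TPM for MRPS18A and 11.6 TPM for MRPS18C. They had log2 ratios of -0.38, -0.53 and -0.55 in TPC-1 and 0.20, 0.17 and 0.29 in FTC-133.

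**Figure D5:**
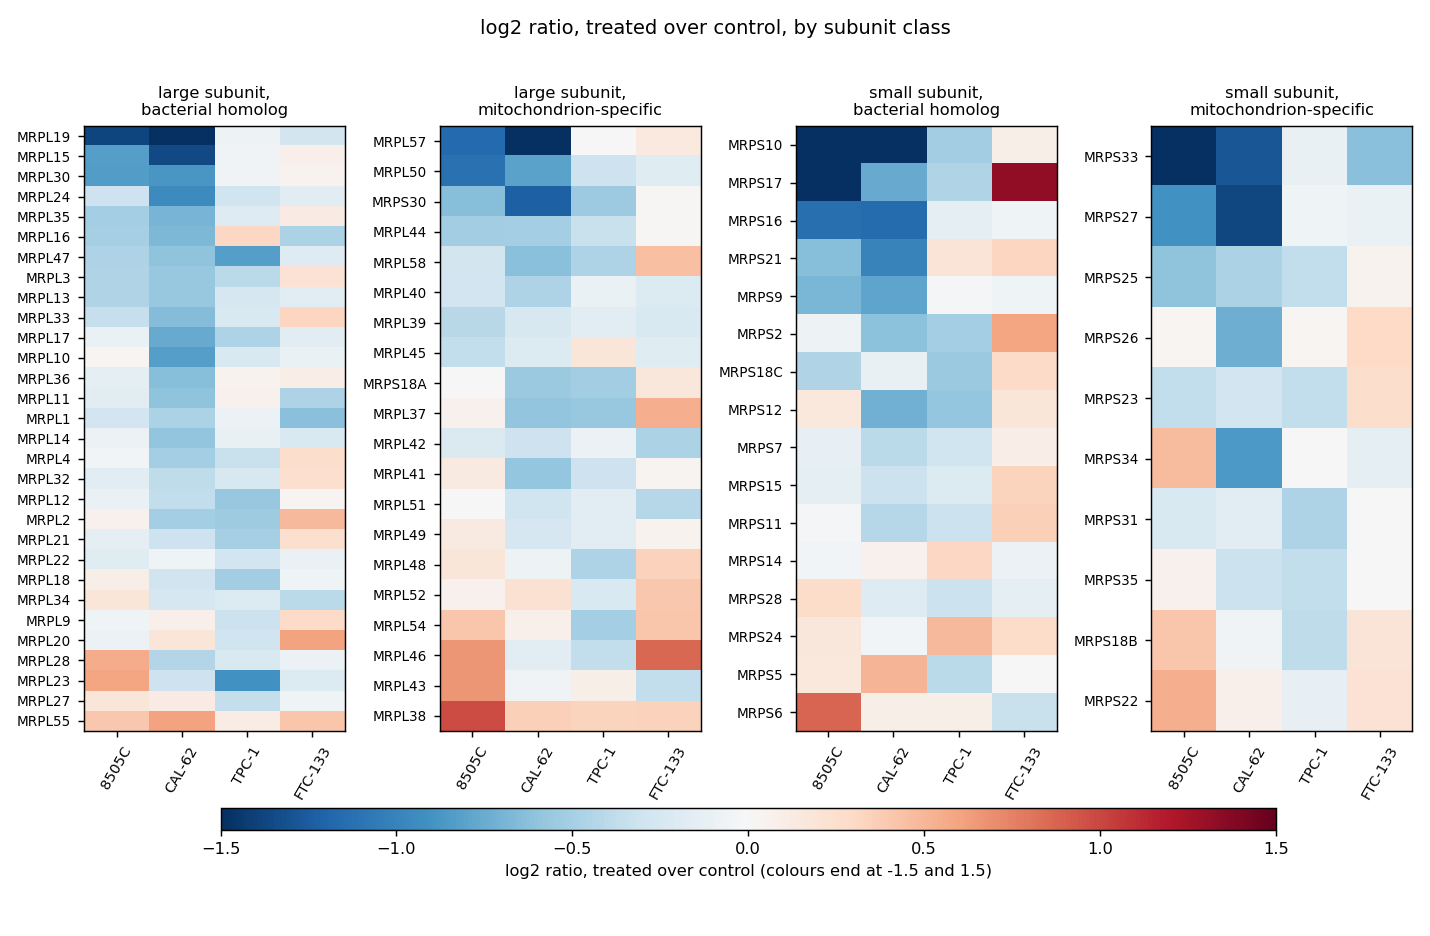
The log2 ratio of treated over control in the 4 lines (columns) for 76 mitochondrial ribosomal protein genes (rows) in 4 classes of subunit and origin, blue for lower and red for higher in treated cells. MRPS36 and MRPL53 are not drawn. Rows are ordered by the siRNA change, and MRPL19, MRPL57, MRPS10 and MRPS33 head their classes.

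Promoters of mitochondrial ribosomal protein genes are known for sites of the nuclear respiratory factors NRF1 and GABP (an ETS factor) and of YY1. RefSeq promoters (GRCh38.p14, 250 bases before to 50 after the start) were found for 69 of the 78 genes. Searched on both strands, the YY1 letters AAGATGGC were in 20 promoters (29%), beside 4.0% of 15317 promoters of protein-coding genes. The ETS letters CCGGAAGT were in 11 (15.9%, beside 6.3%) and the NRF1 core GCATGCGC in 6 (8.7%, beside 4.3%). At least 1 of these motifs was in 28 promoters. The half-site AGGTCA, bound by REV-ERB and ROR receptors, was in 11 (15.9%, beside 11.5%) and the E-box CACGTG of the clock and MYC factors in 6 (8.7%, beside 8.9%). Stretches from MRPL52 (chr14:22829697-22829845, plus strand), MRPL47 (chr3:179604655-179604745, minus strand), MRPL3 (chr3:131502981-131503018, minus strand) and MRPS18B (chr6:30617802-30617839, plus strand) are shown because together they hold the 3 motifs, in capitals, upstream of the start on the gene's strand. GCCATCTT in MRPL47 is the YY1 word read on the other strand.
MRPL52: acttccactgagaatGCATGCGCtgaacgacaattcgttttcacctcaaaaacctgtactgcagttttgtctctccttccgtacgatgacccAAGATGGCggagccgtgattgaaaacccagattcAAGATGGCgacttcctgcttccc
MRPL47: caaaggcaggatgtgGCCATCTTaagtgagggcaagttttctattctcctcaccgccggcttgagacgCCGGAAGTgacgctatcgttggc
MRPL3: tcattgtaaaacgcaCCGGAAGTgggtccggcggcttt
MRPS18B: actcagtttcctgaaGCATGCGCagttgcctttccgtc

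Medians of genes with and without a motif differed by motif and line. In CAL-62 they were -0.09 with and -0.47 without the NRF1 core, and -0.11 and -0.47 for the ETS letters. For the E-box they were -0.23 and -0.47. In 8505C the same pairs were -0.135 and -0.11, 0.035 and -0.138, and -0.158 and -0.10. The NRF1 core and the E-box were each in only 6 promoters. Genes with the YY1 letters had medians of -0.13 in 8505C and -0.34 in CAL-62, and those without had -0.10 and -0.47. Genes with the AGGTCA half-site had -0.31 and -0.58, and those without had -0.10 and -0.44. In TPC-1 and FTC-133 genes with the half-site had -0.16 and 0.10, and those without had -0.29 and 0.04. Of 9 regulator genes measured, 8 had a ratio below 0 in each of 8505C, CAL-62 and TPC-1 and 4 did in FTC-133. Over all genes the shares below 0 were 47.2%, 43.6%, 48.5% and 46.8% in the 4 lines. YY1 had log2 ratios of -0.66, -0.79, -0.14 and -0.48 over the 4 lines. MYC, which drives ribosome production, had -0.45, -1.11, -0.86 and 0.21, and NRF1 had -0.07, -0.39, -0.40 and 0.49. GABPA, the DNA-binding part of GABP, had -0.24, 0.00, 0.59 and -1.48. Their part in the ratios of the ribosomal genes was not tested.

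Other genes of mitochondrial translation were described by the same measures. The 5 mitoribosome proteins under other names (DAP3, PTCD3, CHCHD1, AURKAIP1 and GADD45GIP1) had medians of -0.26, -0.50, -0.45 and 0.04 over the 4 lines. DAP3, a GTP-binding protein of the small subunit, had 72.6 TPM in siNR1D1 and 92.3 TPM in siControl cells of 8505C, and 62.5 and 104 TPM in CAL-62. With the NR1D1 vector DAP3 had 211 TPM in TPC-1 and 181 TPM in FTC-133, against 296 and 149.5 TPM with the empty vector. The 30 measured assembly and rRNA factors had -0.08, -0.31, -0.23 and 0.08, and at a log2 ratio of 0.5 or more 11 were lower and 0 higher in CAL-62 (18.4% and 30.3% of all genes). The 16 measured translation factors had medians of -0.37, -0.34, -0.16 and -0.16, further below 0 in 8505C than the ribosomal genes and below 0 in FTC-133, where the ribosomal genes were not. Of them 7 were lower and 0 higher in 8505C at that size (19.7% and 28.8% of all genes), among them GFM1, an elongation factor, at -0.97. The 17 mitochondrial aminoacyl-tRNA synthetases had medians of -0.35 and -0.49 in 8505C and CAL-62, with 7 and 8 lower and 2 higher in each line, to be read against the same shares. Among the 13 genes of mitochondrial DNA upkeep and transcription, TWNK, the helicase, was lowest after siRNA, at -1.41 and -1.48. None of these lists had a member past an adjusted p of 0.05 in limma's siRNA comparison. At an unadjusted p under 0.05, 5 assembly factors, 1 translation factor, 6 synthetases and 2 of the transcription genes were lower there, and 1 synthetase was higher, beside 5.57% and 8.97% of all genes.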

How the data were processed

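Expression was measured by RNA-seq in 8 libraries. RNA was extracted with Trizol and integrity numbers were at least 6.8, per the labels. The submitters' processing notes name Trimmomatic 0.38, featureCounts 2.0.0 and the GRCh38 build. The aligner, annotation release and strandedness are not given in the sources used here. Units differed, in that the deposited tables of 8505C and CAL-62 held TPM. Those of TPC-1 and FTC-133 were named TPM but held FPKM as deposited by the authors, since value times GENCODE 29 exon length summed to 1.001 to 1.005 times the FPKM total, while their columns summed to 253330.3 to 261469.4. MT- genes were dropped and each column was rescaled to 1000000, which turns FPKM into TPM. Levels set across the lines therefore come from tables normalized separately by the authors.

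Ratios within a line are log2(TPM + 1) differences with no test, over genes with a mean of at least 1 in that line. They understate the change of low genes. Reads were recovered as value times exon length, whole within 0.02 for 72.2% to 74.6% of values, too few for a count model, and served for 95% intervals that cover counting error only. Across lines limma 3.58.1 (R 4.3.3) was fitted to log2(TPM + 1) of genes with a mean of at least 1, with a line term where treated and control were compared, a trended prior and Benjamini-Hochberg adjustment over all genes. With 1 library a group, its p-values reflect how the lines differ and no spread of cultures. On simulated data with 19974 genes, the comparison of treated over control in 4 lines called 12 of 67, 40 of 67 and 50 of 66 genes planted at a log2 change of 1, 2 and 3, while the siRNA and vector comparisons called 0 of each. The 4-line comparison also called 6 genes with no planted change. Its simulated spread came from a fit with separate siRNA and vector terms, and each planted change was equal in all 4 lines. Differences between siRNA and vector effects were thus left out, so its counts may be too high for these data.

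The genes, lists and motifs were chosen with earlier results of these data known. The text names the 4 lowest and 4 highest members per line with a mean of at least 5 TPM, members of 1 direction in all lines, the most and least abundant and those with the widest control range. MRPS16, MRPL24, MRPL41, MRPL37 as a control difference, MRPL18, MRPL50, MRPS30, MRPL36 and MRPL22 were named after their values were seen. Gene positions and 3′ UTRs (1 transcript a gene) are from GENCODE 29 and promoters from RefSeq (GRCh38.p14).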

Additional observations from a re-analysis of the deposited data

Results flagged for a closer look

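Members whose ratio had 1 sign in both siRNA lines and the other sign in both vector lines are given here as the mean log2 ratio of the siRNA lines minus that of the vector lines. MRPL57 had -1.43, MRPS21 -1.08, MRPL36 -0.47 and MRPL27 0.36. By the rule that chose them, each gene had the 2 siRNA lines on one side of 0 and the 2 vector lines on the other. The share of all genes that meet this rule was not computed. MRPL57 had -1.17 and -1.53 in 8505C and CAL-62 but 0.01 and 0.15 in TPC-1 and FTC-133. Its difference thus came mostly from the siRNA lines. MRPL36 had 0.05 in TPC-1 and MRPL27 had -0.07 in FTC-133. Counting intervals of the fold there, 0.903 to 1.2 and 0.844 to 1.08, spanned no change. MRPS21 had -0.64, -0.997, 0.19 and 0.33 over the 4 lines. In limma's comparison of NR1D1-higher and NR1D1-lower libraries, which tests this opposition, MRPS21 had an adjusted p of 0.899, the smallest of any member. No line received both siRNA and vector, so approach and line cannot be told apart.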

How the results depend on the processing

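In all, 184 of 200 recomputed values kept their direction and stayed within the tolerance used, 12 moved past it and 4 changed sign. The 184 include every count of members past an adjusted p of 0.05, all of them 0. In simulated data the siRNA, vector and control-level comparisons called 0 genes planted at a log2 change of 3. Such counts could hardly change, so the total of 184 says little of how stable the results are. For medians the tolerance was 0.214, the SD of the 4 line medians, which is as large as several of the medians, and for counts it was 1.5 times. Within it the siRNA median ran from -0.469 without 8505C to -0.121 without CAL-62, and the control-level median was -0.384 with treated libraries in place of the controls. The 4 that changed sign were medians near 0. Leaving out each line in turn, the vector median ran from -0.253 (without FTC-133) to 0.039 (without TPC-1), the median for NR1D1-higher over NR1D1-lower from -0.008 (without CAL-62) to 0.232 (without TPC-1), and the control-level median from -0.366 (without FTC-133) to 0.011 (without TPC-1). The FTC-133 median became -0.014 with trimmed-mean scaling. Keeping the MT- genes gave -0.77 for the control-level median and, in CAL-62, a median of -0.838, 58 members at -0.5 or lower, 0 at 0.5 or higher and a log2 ratio of the member sum of -0.976. By construction this setting shifts every gene of a library together. Trimmed-mean scaling gave -0.445 for the control-level median, 1 member at 0.5 or higher in CAL-62 and 5 at -0.5 or lower in FTC-133. Without the cytosolic ribosomal protein genes CAL-62 and TPC-1 each had 1 member at 0.5 or higher, as TPC-1 did with a pseudocount of 0.1. Without the members that carry a 7-base word, an alternative chosen after seeing the data, 10 were at -0.5 or lower in 8505C. Apart from the constructions stated, the cause was not tested. limma passed 0 members under every alternative run, with or without the line as a block. Runs that left 1 line in a group measure no spread of that group and add nothing to this. Without that block the siRNA comparison had 6 members at an unadjusted p under 0.05, against 17 with it. Over all 19974 genes the counts, in either direction, were 383 without the block and 2904 with it. Values under 5 TPM, and all of CAL-62 siNR1D1, have the fewest reads behind them.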
